A study of Rattus norvegicus with 18 samples.

Results

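The genes described here are 7 that are used to recognise heat-producing brown fat: the β3-adrenergic receptor gene Adrb3, the coactivator gene Ppargc1a, the deiodinase gene Dio2, the transcriptional regulator gene Prdm16, the lipid droplet gene Cidea, the fatty acid elongase gene Elovl3 and the uncoupling protein gene Ucp1. They were chosen by name, and a probe counted as a member when its gene name in the array files was one of these symbols or a current synonym. A probe was found for 6 of the 7 genes, among 35042 genes or transcripts named on the array, and each of the 6 had 1 probe. Prdm16 was matched by no probe under its symbol or synonyms and has no value below, apart from 1 related probe that is described on its own.

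The levels were measured in RNA of knee synovial tissue from male Lewis rats aged 6 to 8 weeks, an inbred strain used for adjuvant-induced arthritis (AIA). Single-colour (Cy3) Agilent arrays were read for 6 groups of 3 arrays: AIA-cold-WTD and AIA-cold, AIA-hot-WTD and AIA-hot, AIA, and control. All 5 groups other than control were rats with AIA, which was induced with an adjuvant. Cold and hot name 2 variants of the arthritis model, and WTD names a treatment of each. All rats were kept at a room temperature of 24 ± 1 °C per the labels, and how the cold and hot models were made, how WTD was given and when tissue was taken are not given in the sources used here. The titles of the WTD arrays carry letters that the labels do not explain (G on AIA-cold-WTD replicate 1, Z on replicates 2 and 3; D, G and Z on the 3 AIA-hot-WTD arrays), so it is not known whether the 3 arrays of a WTD group had the same dose. Replicates are numbered only to name the arrays. Whether each array came from a rat of its own is not stated, and p-values measure the spread between these arrays.

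Brown adipocytes burn fat for heat. Noradrenaline from sympathetic nerves acts on β3-adrenergic receptors, cyclic AMP rises, and the coactivator encoded by Ppargc1a, the regulator encoded by Prdm16 and thyroid hormone activated by the enzyme encoded by Dio2 raise the transcription of the uncoupling protein gene, whose product lets protons leak back across the inner mitochondrial membrane. White adipocytes, which store fat, also carry β3-adrenergic receptors in rodents, and beige adipocytes are cells of white fat depots that take on the brown programme. The synovium is the lining of a joint, and the knee's synovial lining lies on a fat pad.

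The probes are 60-base oligonucleotides, and 4 are shown because detection sets them apart: Ucp1 and Elovl3 were on no array well above background, Ppargc1a was on few, and Cidea was on all. The sequences are printed 5′ to 3′ as the array files give them, and the files place them on the rat genome build rn4. Ucp1 lies at chr19:26527687-26527746 on the minus strand, Elovl3 at chr1:251354118-251354177 on the plus strand and Ppargc1a at chr14:64365667-64365726 on the plus strand. Cidea spans chr18:63888076-63895390 on the plus strand, a stretch of 7315 bases for a probe of 60, so its ends lie in different exons. No annotation of that build was used here, so exons and UTRs are not named for the others.
Ucp1: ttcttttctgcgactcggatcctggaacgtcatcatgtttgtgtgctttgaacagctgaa
Elovl3: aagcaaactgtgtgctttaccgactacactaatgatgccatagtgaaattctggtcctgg
Ppargc1a: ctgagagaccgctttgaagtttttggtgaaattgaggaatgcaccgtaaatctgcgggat
Cidea: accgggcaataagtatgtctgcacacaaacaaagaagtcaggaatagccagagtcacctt
The bases G and C made up 45% of the Ucp1, Ppargc1a and Cidea probes and 43.3% of the Elovl3 probe.

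The arrays differed in ways that touch these results. A level below is the log2 of a probe's processed signal relative to the 75th percentile of its array, so levels of 1 probe can be compared between arrays but levels of different probes cannot be compared with each other. That percentile was 68.9 signal units on control replicate 1, and 201 to 331 on the other 17 arrays. The share of probes well above background was 43.3% on control replicate 1, against 56.4% to 76.5% on the others. Synovial fibroblast and lining markers were well above background on all 18 arrays for 10 of 10 genes. Each slide held up to 4 arrays, and the 2 cold groups shared no slide with the hot, AIA or control arrays, so that slide and group cannot be told apart for AIA-cold against AIA-hot, AIA or control.

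**Figure D1:**
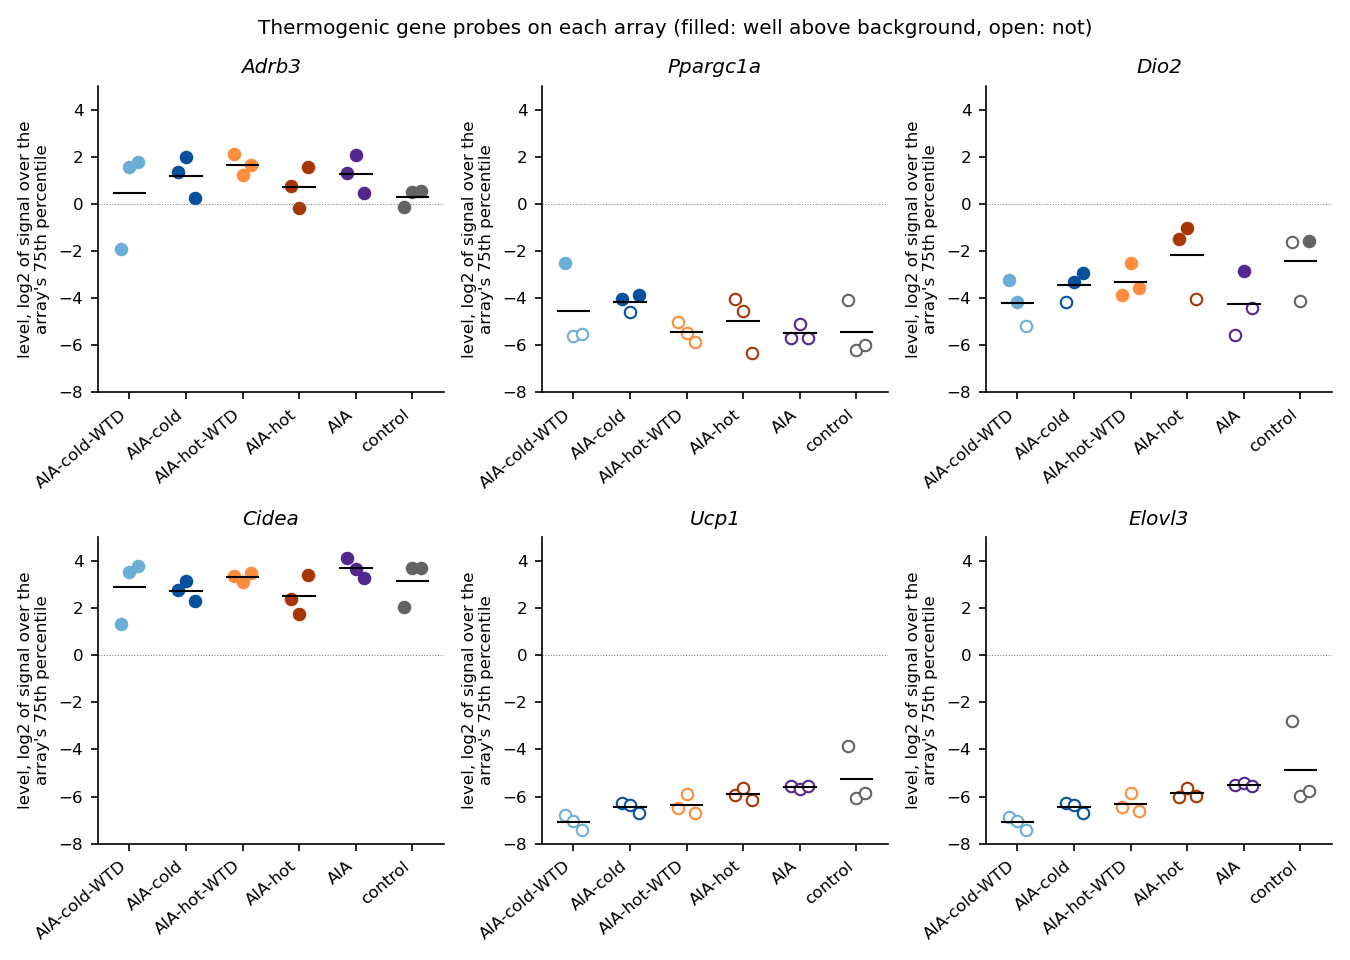
Level of each of the 6 genes on every array (log2 of the signal relative to the array's 75th percentile), by group, with the group mean as a line; filled points were well above background and open points were not. Cidea and Adrb3 were filled on all 18 arrays, Dio2 on 11 and Ppargc1a on 3, while Ucp1 and Elovl3 were open throughout.

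Adrb3, the receptor through which noradrenaline reaches fat cells, was well above background on 18 of 18 arrays. Its level was -1.92, 1.56 and 1.76 on the AIA-cold-WTD arrays, 1.36, 1.98 and 0.22 on the AIA-cold arrays, 2.12, 1.21 and 1.64 on the AIA-hot-WTD arrays, 0.75, -0.20 and 1.58 on the AIA-hot arrays, 1.30, 2.06 and 0.47 on the AIA arrays and -0.13, 0.48 and 0.54 on the control arrays. The groups compared below overlapped, and AIA-cold-WTD replicate 1 lay below all other arrays. The group means in falling order were 1.65 ± 0.46 in AIA-hot-WTD, 1.28 ± 0.79 in AIA, 1.19 ± 0.89 in AIA-cold, 0.71 ± 0.89 in AIA-hot, 0.47 ± 2.07 in AIA-cold-WTD and 0.30 ± 0.37 in control (SD, n = 3 each).

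Ppargc1a encodes a coactivator that drives mitochondrial biogenesis in brown fat and muscle. It was well above background on 3 of 18 arrays, AIA-cold-WTD replicate 1 (43.9 signal units) and AIA-cold replicates 1 and 3 (18.2 and 18.7 units). On the other arrays the signal lay between 3.60 and 15.7 units. The lowest signal of any probe well above background differed between arrays, at 15.4 units on AIA-cold replicate 1 and 18.9 on AIA-hot replicate 1. Ppargc1a's level was -4.06 on AIA-cold replicate 1 and -4.04 on AIA-hot replicate 1, where it did not count as well above background. The count of arrays alone therefore does not show that its level was higher there. Levels were -2.50, -5.62 and -5.51 on the AIA-cold-WTD arrays and -4.06, -4.61 and -3.89 on the AIA-cold arrays. They were -5.04, -5.51 and -5.86 on the AIA-hot-WTD arrays and -4.04, -4.55 and -6.36 on the AIA-hot arrays. On the AIA arrays they were -5.70, -5.10 and -5.69, and on the control arrays -4.09, -6.20 and -6.02. Most of these values were not well above background. All 3 arrays on which it was well above background lay on the slide that held the AIA-cold arrays, and AIA-cold-WTD replicate 1 shared it. It was not well above background on all 3 arrays of any group, so it was left out of the fit and no fold is given. AIA-cold-WTD replicate 1, the array with the highest Ppargc1a level (-2.50), had the lowest levels of Adrb3 and Cidea.

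Dio2 encodes the deiodinase that turns thyroxine into active triiodothyronine inside the cell, and it is present in many tissues other than brown fat. It was well above background on 11 of 18 arrays. Levels were -3.23, -4.18 and -5.20 on the AIA-cold-WTD arrays, -4.16, -3.32 and -2.93 on the AIA-cold arrays, -3.88, -2.51 and -3.60 on the AIA-hot-WTD arrays, -1.48, -1.02 and -4.06 on the AIA-hot arrays, -5.57, -2.84 and -4.42 on the AIA arrays and -1.63, -4.12 and -1.56 on the control arrays. The highest levels stood on AIA-hot replicates 2 and 1 and control replicate 3, and the groups compared below overlapped. Of the AIA-hot-WTD arrays 3 were well above background, of the AIA-cold-WTD, AIA-cold and AIA-hot arrays 2 each, and of the AIA and control arrays 1 each. The signal needed for this differed between arrays. Dio2 was well above background at 16.7 units on AIA-cold-WTD replicate 2 but not at 22.3 units on control replicate 1. The means below take in the arrays on which Dio2 was not well above background, and so do its differences, intervals and p-values. Dio2 entered the fit only through AIA-hot-WTD, the group with all 3 arrays well above background.

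Cidea encodes a lipid droplet protein that is abundant in rodent brown fat and is also present in white fat. It was well above background on all 18 arrays, at 288 to 4618 signal units. Its level was 1.34, 3.51 and 3.79 on the AIA-cold-WTD arrays, 2.77, 3.14 and 2.30 on the AIA-cold arrays, 3.36, 3.13 and 3.50 on the AIA-hot-WTD arrays, 2.38, 1.76 and 3.41 on the AIA-hot arrays, 4.11, 3.67 and 3.28 on the AIA arrays and 2.06, 3.68 and 3.71 on the control arrays. All 3 AIA-cold arrays lay below all 3 AIA arrays, and the other pairs of groups compared overlapped. In falling order the means were 3.69 ± 0.42 in AIA, 3.33 ± 0.19 in AIA-hot-WTD, 3.15 ± 0.94 in control, 2.88 ± 1.34 in AIA-cold-WTD, 2.74 ± 0.42 in AIA-cold and 2.52 ± 0.84 in AIA-hot (SD, n = 3 each).

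Elovl3, an elongase of very long chain fatty acids that cold exposure induces in mouse brown fat, was well above background on 0 of 18 arrays. Its signal was 1.81 to 9.81 units, at most 51.7% of the lowest signal that any probe well above background had on the same array, and at most 27.9% without control replicate 1. Ucp1, the uncoupling protein that defines brown fat, was likewise well above background on 0 of 18 arrays. Its probe was printed in 10 spots per array. Without outlier-marked spots, 6 were used on AIA-cold-WTD replicate 3 and 9 or 10 on each other array. None of the spots used was well above background on any array. The Ucp1 signal was 1.80 to 5.80 units, at most 25.4% of the lowest detectable signal on its array, which ran from 8.10 to 26.2 units over the arrays. Values this dim have no sure order, so no difference between groups is given for either gene. Expression of either gene was not detectable at the sensitivity of the array, which does not show that it was absent. Over all 41012 gene probes, 16.3% were well above background on no array and 40.7% on all.

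A probe named LOC100362616, which the files annotate as the transcription factor MEL1, an alias of PRDM16 in human, was not counted among the 7. It lay at chr5:171326159-171326218 (rn4), between probes of Wrap73 and Actrt2; in the GRCr8 gene table Prdm16 is 1 of 4 protein-coding genes between these 2. It was well above background on 14 of 18 arrays. Its levels were -3.45, -3.31 and -3.68 on the AIA-cold-WTD arrays, -3.33, -3.88 and -3.41 on the AIA-cold arrays, -3.31, -3.33 and -3.59 on the AIA-hot-WTD arrays, -3.60, -5.12 and -3.45 on the AIA-hot arrays, -3.48, -3.74 and -3.34 on the AIA arrays and -2.45, -3.45 and -3.61 on the control arrays. AIA-hot replicate 2, control replicate 1 and AIA replicates 1 and 2 were not well above background. It was called in 0 of 9 contrasts (limma), in which 0% to 0.534% of all genes were. In AIA-hot against control the difference was -0.89 ± 0.38 (SE, adjusted p = 0.362), with 1 array of each group not well above background.

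**Figure D2:**
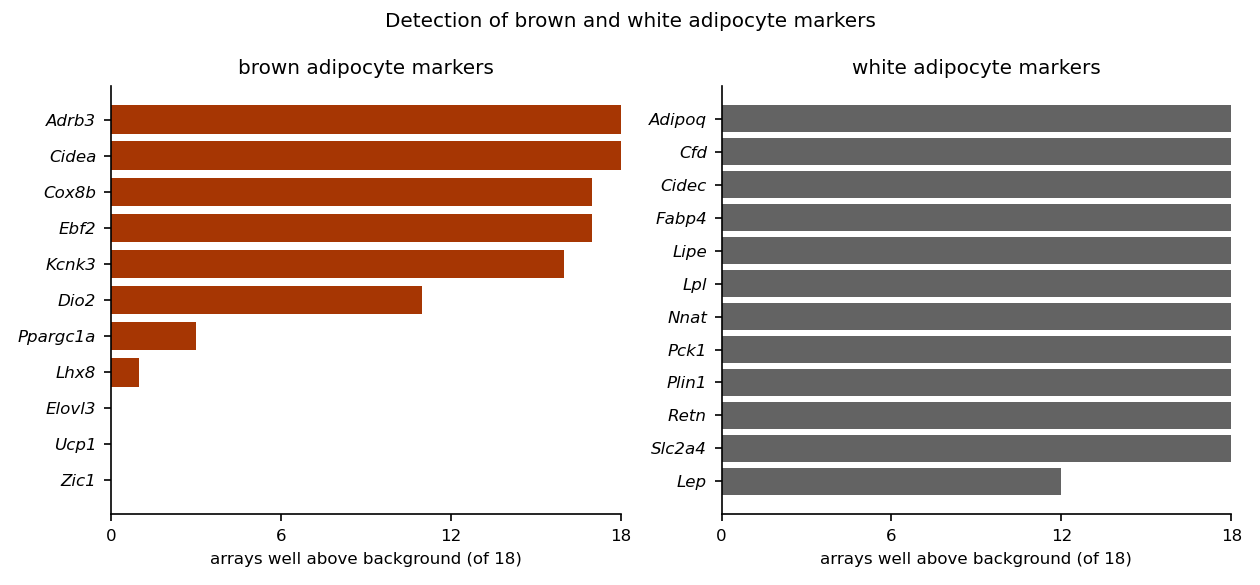
Number of arrays, of 18, on which each brown adipocyte marker with a probe (left) and each white adipocyte marker (right) was well above background. Of the 11 brown adipocyte markers 2 (Cidea and Adrb3) were on all 18 arrays, 6 on some (the fewest Lhx8, on 1) and 3 (Ucp1, Elovl3 and Zic1) on 0. Of the 12 white adipocyte markers 11 were on all 18 and Lep on 12.

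In the wider list of brown adipocyte markers, 11 of 13 had a probe, and those named here were chosen after their values were seen. Zic1, a transcription factor of classical brown adipocytes, was well above background on 0 arrays and Lhx8, another, on 1. Cox8b, a cytochrome c oxidase subunit, and Ebf2, a transcription factor that marks brown and beige precursors, were each detected on 17 arrays, and the potassium channel gene Kcnk3 on 16. Of the white adipocyte markers, 11 of 12 were well above background on every array, among them Cfd (adipsin), Retn (resistin) and the fatty acid binding protein gene Fabp4. Of the markers of sympathetic nerve, Th and Dbh, the enzymes of noradrenaline synthesis, were well above background on 0 arrays, Slc6a2 on 4 and Npy on 18.

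The comparison of the cold with the hot model asks whether the thermogenic genes differ between the 2 variants of the disease. The fit took in the 3 genes that reached well above background throughout some group of 3 arrays, Cidea, Adrb3 and Dio2. Of these, 0 were called, where 2 of 23588 genes were (0.00848%, limma, adjusted p under 0.05). Cidea was at 2.74 ± 0.42 in AIA-cold and 2.52 ± 0.84 in AIA-hot (SD, n = 3 each), a difference of 0.22 ± 0.60 (SE, 95% confidence interval -1.06 to 1.50). The difference was 0.48 ± 0.80 for Adrb3 (-1.24 to 2.20). For Dio2, at -3.47 ± 0.63 in AIA-cold and -2.19 ± 1.64 in AIA-hot, it was -1.28 ± 0.90 (-3.21 to 0.64). Each interval reaches past 1 log2 unit in at least 1 direction, and 0 of the 3 genes had an unadjusted p under 0.05; the smallest adjusted p was 0.970. Cidea's small difference turned to -0.16 without AIA-hot replicate 2.

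The next 3 contrasts share the 3 control arrays. Against control, 0 of the 3 genes were called in AIA-cold, where 0.534% of genes were (126 of 23589), and 0 had an unadjusted p under 0.05. Cidea differed by -0.41 ± 0.60, Adrb3 by 0.89 ± 0.80 and Dio2 by -1.03 ± 0.90. Without control replicate 1, the dim array, these were -0.96 for Cidea and -0.63 for Dio2. In AIA-hot against control 0 of 3 were called, against 0.0551% of all genes (0.0127% higher and 0.0424% lower), with Cidea at -0.64 ± 0.60, Adrb3 at 0.41 ± 0.80 and Dio2 at 0.25 ± 0.90. Without control replicate 1, Cidea was at -1.18, Adrb3 at 0.20 and Dio2 at 0.66. Dio2's difference had the other sign without control replicate 2 (-0.59) and without AIA-hot replicate 1 or 2 (-0.10 and -0.33). In AIA against control 0 of 3 were called, against 0% of all genes. Dio2 was at -4.28 ± 1.37 in AIA and -2.44 ± 1.46 in control, and -2.84 in control without control replicate 1. The difference was -1.84 ± 0.90 (adjusted p = 0.757, limma). Cidea differed by 0.53 ± 0.60, or -0.011 without control replicate 1, and Adrb3 by 0.98 ± 0.80. On the 1 slide that held both groups, AIA replicate 1 lay -3.13 from the mean of the 3 control arrays for Dio2. Cidea was at 0.96 there and Adrb3 at 1.00, with the dim control replicate 1 in the control mean. For Dio2 that AIA array and 2 of the 3 control arrays were not well above background, so its value there is no measured fold.

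The contrasts of AIA-cold and AIA-hot with AIA share the 3 AIA arrays. In these, 0 of 3 genes were called in either model, and 0% of all genes were called in both contrasts. Dio2 was at -2.19 ± 1.64 in AIA-hot and -4.28 ± 1.37 in AIA, a difference of 2.09 ± 0.90, with 1 AIA-hot array and 2 AIA arrays not well above background. Of the 27 differences of Cidea, Adrb3 and Dio2 in the 9 contrasts, this was the only one with an unadjusted p under 0.05 (adjusted p = 0.878, limma). On the slide that held both groups, AIA-hot replicates 1 and 2 lay 2.38 above AIA replicates 2 and 3 for Dio2, and -1.40 and -0.99 from them for Cidea and Adrb3. All AIA-cold arrays lay below all AIA arrays for Cidea, in a contrast where 24.2% of all genes did not overlap in 1 direction or the other, and its difference was -0.95 ± 0.60 (adjusted p = 0.690).

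**Figure D3:**
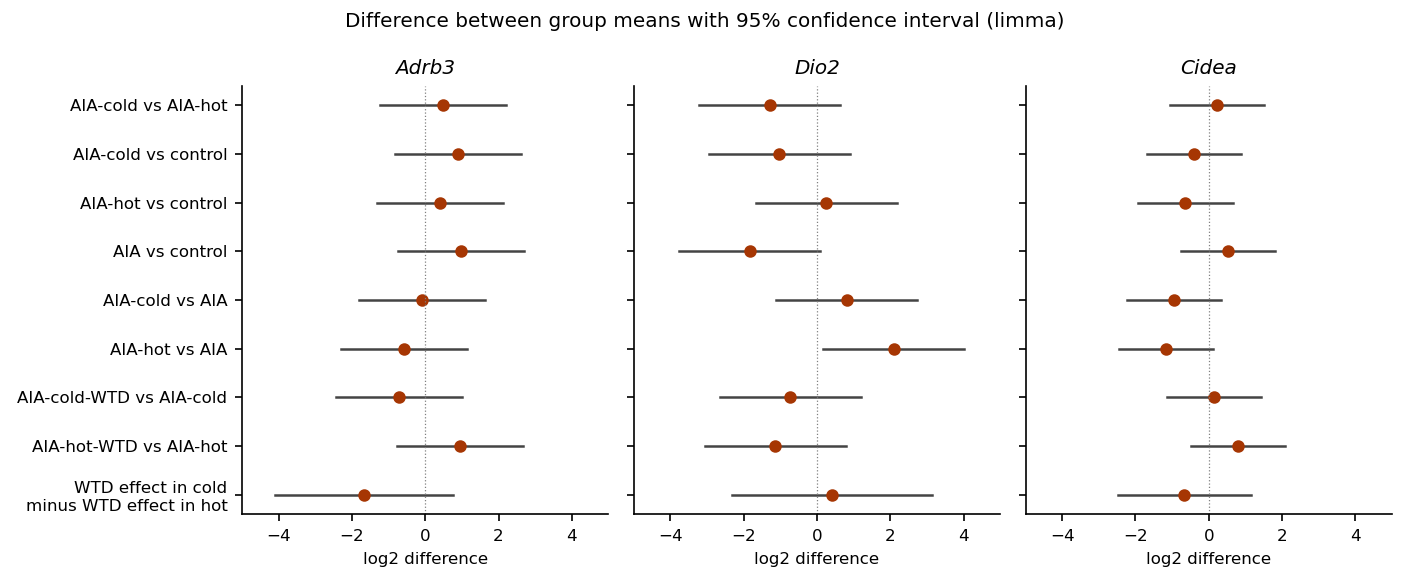
Difference between group means (log2, point) with its 95% confidence interval (line) for Adrb3, Dio2 and Cidea in the 9 contrasts, from the limma fit of all 18 arrays. All intervals but that of Dio2 in AIA-hot against AIA (0.17 to 4.01) include 0.

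WTD was compared with the untreated rats of each model. In the cold model 0 of the 3 genes were called, against 0.00848% of all genes; Cidea differed by 0.14 ± 0.60, Adrb3 by -0.72 ± 0.80 and Dio2 by -0.73 ± 0.90. Adrb3 depended on AIA-cold-WTD replicate 1, the array of low adipocyte markers: without it the difference was 0.48 ± 0.57. Cidea's difference was 0.92 and Dio2's -1.22 without the same array. That array was also the only one of its group on the slide of the AIA-cold arrays, where it lay -3.11 from their mean for Adrb3, -1.40 for Cidea and 0.24 for Dio2. In the hot model 0 of 3 were called, against 0% of all genes, with Cidea at 0.81 ± 0.60, Adrb3 at 0.94 ± 0.80 and Dio2 at -1.14 ± 0.90. Within the slide of AIA-hot replicate 3 and the 3 AIA-hot-WTD arrays these were -0.09, 0.08 and 0.73. WTD's effect in the cold model minus that in the hot model was tested as well, and 0 of 3 genes were called (0% of all genes), with Adrb3 at -1.66 ± 1.14, Cidea at -0.67 ± 0.85 and Dio2 at 0.41 ± 1.27.

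Without the filter on dim probes all 6 genes could be fitted, and 0 of 6 were called in any contrast, where 0.596% of genes were called in AIA-cold against control, 0.0114% in AIA-hot against control, 0.00571% in AIA-cold-WTD against AIA-cold and 0% in the other 6. An unadjusted p under 0.05 was reached by Dio2 in AIA-hot against AIA and by 2 genes in AIA-cold against control. These 2 were Ucp1 and Elovl3, neither of them well above background on any array, so their values are not read as levels.

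Cidea and Adrb3 moved with the markers of white adipocytes. A white adipocyte score, the mean level of 12 markers that are none of the 7 genes, ran from 1.96 to 5.28 over the arrays. The arrays with the lowest scores were AIA-cold-WTD replicate 1 (1.96), control replicate 1 (2.95), AIA-hot replicate 2 (3.22) and AIA-cold replicate 3 (3.84), and the scores of the groups overlapped. The correlation with the score over 18 arrays was 0.914 for Adrb3 (Pearson, permutation p = 1e-05, the smallest the 100000 resamples can give, adjusted p = 3e-05; Spearman 0.814, permutation p = 8e-05). For Cidea it was 0.887 (permutation p = 1e-05, adjusted p = 3e-05; Spearman 0.680, permutation p = 0.00246). Leaving out the 2 arrays farthest from the median score, AIA-cold-WTD replicate 1 and control replicate 1, gave 0.812 for Adrb3 and 0.818 for Cidea. As deviations from the group means the correlations were 0.911 and 0.964. Both genes are themselves expressed in white fat, and in bulk tissue fewer adipocytes and less RNA per adipocyte cannot be told apart. Slides held at most 4 arrays, too few for a correlation within 1 slide.

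For Dio2 the coefficient was -0.510 (Pearson; Spearman -0.631) over 18 arrays, and -0.663 without those 2 arrays. The permutation adjusted p was 0.0592 (Pearson; Spearman 0.0120), but it is given only as a description. This is because 7 of the 18 Dio2 values did not stand well above background, and such values have no sure order. With skeletal muscle markers the correlation over 18 arrays was 0.378 for Cidea (permutation adjusted p = 0.183 over the 6 relations computed; Spearman 0.558, adjusted p = 0.0281) and 0.128 for Adrb3 (permutation adjusted p = 0.597). The muscle score was highest on AIA-hot-WTD replicate 3 (3.19) and control replicate 2 (1.08).

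**Figure D4:**
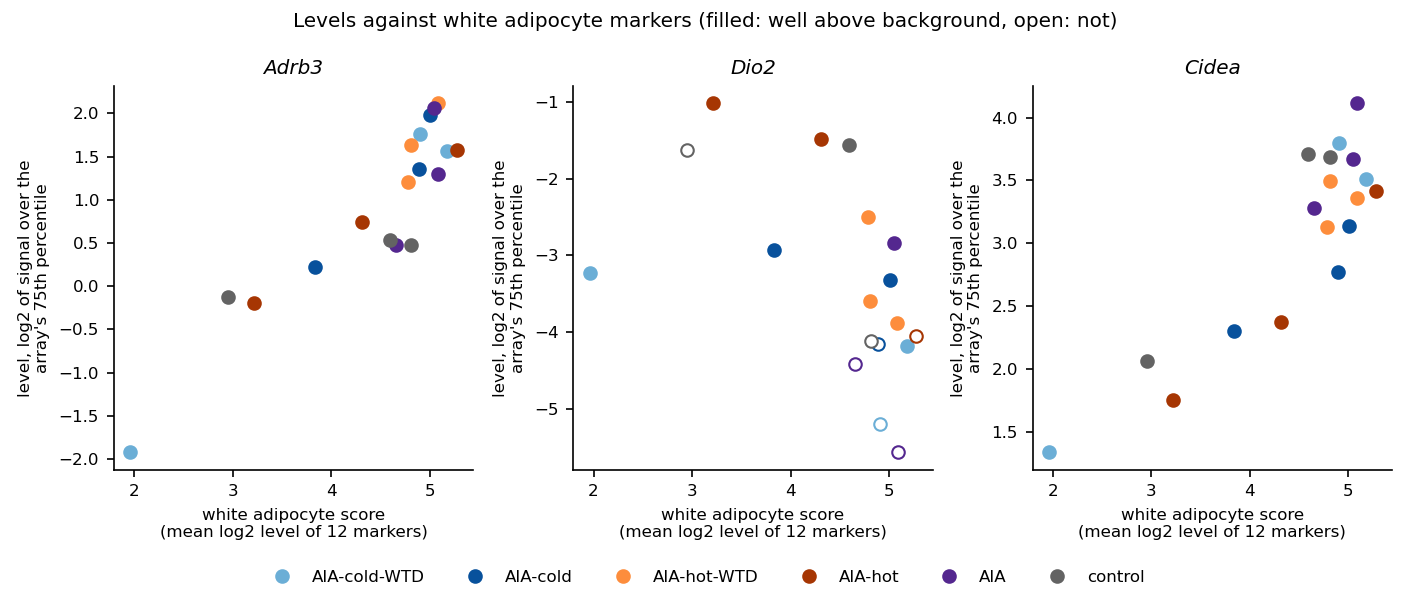
Level of Adrb3, Dio2 and Cidea (log2, relative to the array's 75th percentile) against the white adipocyte score of the same array (mean log2 level of 12 markers), 1 point per array; open points were not well above background. Adrb3 (r = 0.914) and Cidea (r = 0.887) rise with the score over 18 arrays, while 7 of the 18 Dio2 points (r = -0.510) are open.

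Relative to the score, the Cidea values of the AIA-cold and AIA-hot arrays stood apart from those of the AIA and control arrays. Those of the AIA-hot-WTD arrays also all lay below control, but overlapped with AIA. No share over all genes was computed for AIA-hot-WTD against control, so that separation is not read as unusual. Cidea's level less the score was -0.62, -1.66 and -1.11 on the AIA-cold-WTD arrays, -2.12, -1.87 and -1.53 on the AIA-cold arrays, -1.73, -1.66 and -1.31 on the AIA-hot-WTD arrays, -1.93, -1.46 and -1.86 on the AIA-hot arrays, -0.98, -1.38 and -1.37 on the AIA arrays and -0.89, -1.13 and -0.88 on the control arrays. Only differences of this quantity between arrays carry meaning, not its size. The subtraction takes Cidea to change by 1 log2 unit per unit of score. The 12 markers of the score did not all move alike. In AIA-cold against AIA 3 were higher and 9 lower (-2.49 to 1.18), and against control 10 were higher and 2 lower (-1.61 to 2.78). How far Cidea's values, here and with the covariate below, depend on the markers averaged was not tested. In Cidea's level less the score, all AIA-cold and all AIA-hot arrays lay below all AIA and all control arrays. After the same subtraction 3.56% of all genes did not overlap for AIA-cold against control and 1.1% for AIA-hot against control. The share was 9.3% for AIA-cold against AIA, 2.57% for AIA-hot against AIA and 1.45% for AIA-cold against AIA-hot, where Cidea did overlap. Before the subtraction the shares were, in the same order, 24.9%, 13.1%, 24.2%, 9.9% and 15%. Subtracting the score adds its spread to genes that do not move with it, whereas Cidea does. The shares after subtraction are therefore not a like measure for Cidea. The means were -1.84 ± 0.30 in AIA-cold, -1.75 ± 0.26 in AIA-hot, -1.24 ± 0.23 in AIA and -0.97 ± 0.14 in control (SD, n = 3 each).

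With the score as a covariate in the limma fit, an alternative added after these data had been seen, Cidea fell in AIA-cold against control by 0.77 ± 0.18 on the log2 scale (adjusted p = 0.0366), 1 of 3 genes tested where 3.87% of all genes were called. In AIA-hot against control it differed by -0.75 ± 0.18 (adjusted p = 0.0707), where 0.687% were called. Against AIA the differences were -0.67 ± 0.18 in AIA-cold (adjusted p = 0.114, where 0.432% of genes were called) and -0.65 ± 0.18 in AIA-hot (adjusted p = 0.742, where 0% were). Between AIA-cold and AIA-hot Cidea differed by -0.02 ± 0.18 (adjusted p = 0.998, where 0.0848% were called), and in AIA-cold-WTD against AIA-cold by 0.58 ± 0.18 (adjusted p = 0.215, where 0.276% were). The call in AIA-cold against control did not hold when any 1 of AIA-cold replicates 1, 2 and 3 or control replicates 2 and 3 was left out (adjusted p = 0.139, 0.0856, 0.0651, 0.0678 and 0.0818), with differences from -0.87 to -0.67 over the 18 fits. The slide and group cannot be told apart in this contrast. With the covariate and slide as a fixed block, AIA-hot against control was at -0.36 ± 0.32 (adjusted p = 0.705) and AIA-hot against AIA at -0.58 ± 0.24 (adjusted p = 0.395). In level less score, on the 1 slide with both groups, AIA-hot differed from AIA by -0.32. Adrb3 and Dio2 were called in none of the 9 contrasts with the covariate.

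**Figure D5:**
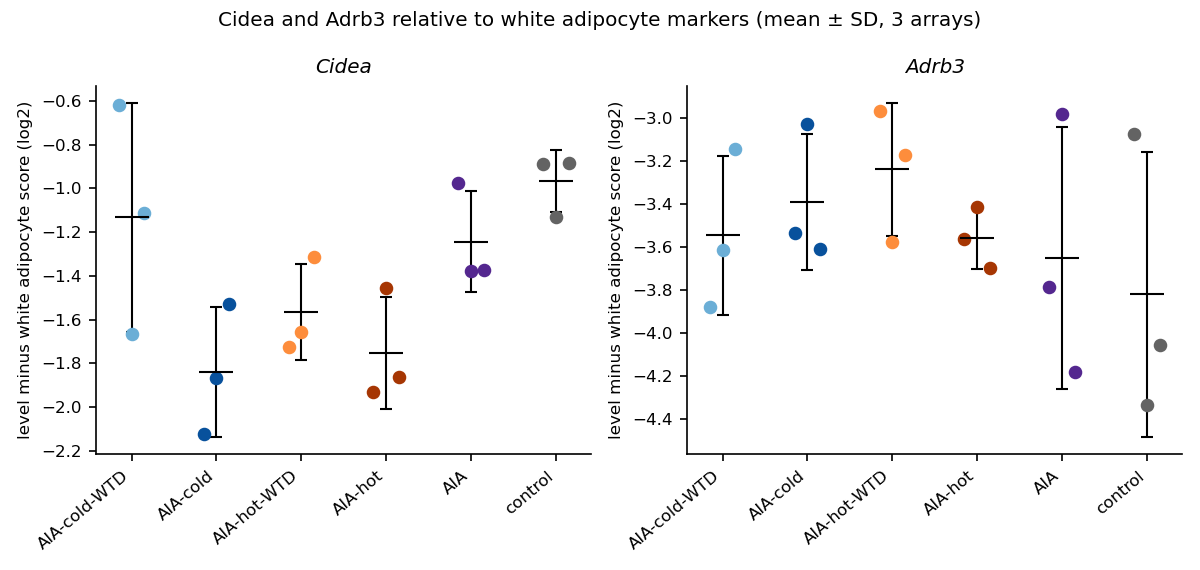
Level less the white adipocyte score (log2) for Cidea (left) and Adrb3 (right) on every array, with mean ± SD of the 3 arrays of a group. For Cidea the AIA-cold (-2.12 to -1.53) and AIA-hot (-1.93 to -1.46) arrays lie below those of AIA (-1.38 to -0.98) and control (-1.13 to -0.88); for Adrb3 all groups overlap.

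Among 11987 genes with a symbol, those whose levels over the 18 arrays were most like Cidea's were Tmem182, the muscle-type carnitine palmitoyltransferase gene Cpt1b, which is also the form of brown fat, and Gcsh of the glycine cleavage system (Pearson 0.970, 0.969 and 0.967). Most like Adrb3 were Acvr1c, an activin receptor, Agt, which encodes angiotensinogen, and Adhfe1 (0.952, 0.952 and 0.951). Adipoq, the adiponectin gene, is given only for comparison as a white adipocyte marker and stood at rank 45 for Adrb3 (0.900) and at rank 386 for Cidea (0.861). For Dio2 the highest were Setbp1, Pkd1 and Slc25a28 (0.813, 0.810 and 0.801), over arrays that include those 7 values. These are the highest of many correlations over the same arrays and are given as a description.

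Of the other genes of the pathway, in 8 lists and 9 lists of cell type markers, 0 members were called in any of the 9 contrasts (limma), in which 0% to 0.534% of all genes were. The smallest adjusted p was 0.0640, for the uncoupling protein relative Ucp2 in AIA-cold against control (1.03 ± 0.24), a gene named after its values were seen. The values that follow are for AIA-cold against AIA-hot, in which the median over all genes was 0.01. All 12 genes of adrenergic and cyclic AMP signalling were tested, and their median was -0.03. Gnas, which encodes the stimulatory G protein subunit, was at -0.05 ± 0.13, the stress kinase gene Mapk14 at -0.03 ± 0.19 and Prkar2b, a regulatory subunit of protein kinase A, at 0.67 ± 0.79.

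Of 18 genes of brown fat transcription 14 were tested, with a median of 0.17; Esrra, a nuclear receptor that works with Ppargc1a's product, was at 0.04 ± 0.15, Tfam, a factor of mitochondrial DNA transcription, at 0.29 ± 0.20 and Pparg, the master regulator of adipocytes, at 0.92 ± 0.75. Of 21 brown and beige effectors and secreted factors 17 were tested, with a median of 0.33; the fatty acid transporter gene Slc27a1 was at 0.89 ± 0.31 (adjusted p = 0.737), Cpt1b at 0.04 ± 0.65 and Atp2a2, a calcium pump of the endoplasmic reticulum, at -0.24 ± 0.13. Of 7 beige markers 6 were tested, with a median of -0.04; Hoxc9 was at -0.03 ± 0.16, Shox2 at -0.14 ± 0.36 and Cited1 at 0.87 ± 0.26 (adjusted p = 0.630).

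The 8 genes of thyroid hormone handling had a median of 0.15, with Thrsp, a lipogenic target of the hormone, at 0.28 ± 0.75, Klf9 at 0.36 ± 0.19 and the receptor gene Thrb at 0.02 ± 0.32. The 8 tested of 10 genes of the Cide and lipid droplet family had a median of 0.79 and all had positive differences, with Cidec, which promotes large lipid droplets, at 1.22 ± 1.01 and G0s2, whose product inhibits the triglyceride lipase encoded by Pnpla2, at 0.67 ± 0.82, while Pnpla2 itself was at 0.86 ± 0.82. Genes of this family act in white fat as well, and the white adipocyte score averaged 4.58 ± 0.65 in AIA-cold and 4.27 ± 1.03 in AIA-hot; its part in these values was not tested. Of 6 elongases other than Elovl3, 4 were tested (median 0.02), among them Elovl6 at 0.07 ± 0.91, Elovl1 at -0.05 ± 0.20 and Elovl5 at 0.24 ± 0.29, and Elovl2 and Elovl4 were well above background on 0 arrays. Of 7 names listed as Prdm relatives 5 were tested, with Prdm2 at -0.02 ± 0.14 and Mecom, the closest relative of Prdm16, at 0.04 ± 0.14. The list also held Prdm3, which is another name of Mecom.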

How the data were processed

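Deposited scanner files gave fluorescence intensity per spot (Agilent Feature Extraction 10.7, from the submitters' processing notes). The processed signal used was already free of background by subtraction, per the file headers. An alternative was the deposited table of the authors' log2 values, whose normalization is not given in the sources used here. Control and outlier-marked spots were dropped, spots averaged per probe, and log2 signals set against each array's 75th percentile. A probe counted as well above background on an array when most of its spots did. A probe stayed in the fit if that held throughout any group, and the brightest stood for its gene. One limma 3.58.1 fit (lmFit, eBayes; R 4.3.3) of 18 arrays gave 9 contrasts, adjusted by Benjamini-Hochberg over up to 23589 genes; a call needed an adjusted p under 0.05. The fit was tested on simulated data. Probe positions are those of rn4, per the file headers. The GRCr8 gene table of RefSeq named 18507 probes through an accession, 2900 through a symbol and 386 through a synonym; the remaining 19219 carry the name printed in the files. The 7 genes and all gene lists were chosen with earlier results of these data known. Genes named were the 7, up to 3 per list with the highest mean level plus any called, and the 3 most correlated with each gene in the fit; exceptions are marked, and 1 listed gene is not reported here. Alternatives were quantile normalization, normexp (offset 50), the series table, other filters, the mean of probes, only the groups compared, slide as a block and leaving out each array; the adipocyte covariate was added after the data were seen. Other treatment groups are not analysed here.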

Additional observations from a re-analysis of the deposited data

How the results depend on the processing

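Under the alternatives chosen at the outset, 0 of the 3 genes were called in any of the 9 contrasts (240 values, smallest adjusted p = 0.0728, limma). With the white adipocyte score as a covariate, alone or with slide as a random block, 1 was called in AIA-cold against control, and 0 to 1 when each array was left out. Of 711 planned values for the differences, 685 kept their direction and side of the threshold and 26 had the other sign; the cause was not tested.

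With normexp, Dio2 was at -0.20 in AIA-hot against control and -0.14 in AIA-cold against AIA. With slide as a fixed block, which cannot be estimated for AIA-cold against AIA-hot, control or AIA, Dio2 was at -0.75 in AIA-hot against control, 0.24 in AIA-cold-WTD against AIA-cold, 0.73 in AIA-hot-WTD against AIA-hot and -0.49 in the cold minus hot effect of WTD. Cidea was at -1.40 in AIA-cold-WTD against AIA-cold and -0.086 in AIA-hot-WTD against AIA-hot. As a random block, slide gave Dio2 -0.11 in AIA-hot against control, Adrb3 0.18 in AIA-cold against AIA and Cidea -0.16 in AIA-cold-WTD against AIA-cold. The covariate gave Cidea -0.020 in AIA-cold against AIA-hot, -0.10 in AIA against control and 0.26 in the cold minus hot effect of WTD; Adrb3 0.26 in AIA-cold and 0.086 in AIA-hot, each against AIA; and Dio2 -0.45 in the cold minus hot effect.

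Leaving out each array, Cidea ranged from -0.16 to 0.67 in AIA-cold against AIA-hot, -0.011 to 0.81 in AIA against control, -0.31 to 0.92 in AIA-cold-WTD against AIA-cold and -1.12 to 0.11 in the cold minus hot effect. Adrb3 ranged from -0.020 to 0.87 in AIA-hot against control, -0.49 to 0.39 in AIA-cold against AIA and -1.36 to 0.48 in AIA-cold-WTD against AIA-cold. Dio2 ranged from -0.59 to 1.19 in AIA-hot against control and -0.17 to 1.34 in the cold minus hot effect. The correlation of Cidea with the white adipocyte score was 0.964 on deviations from the group means, and that of Dio2, a description with 7 arrays not well above background, was -0.62 with normexp.

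The number of all genes called moved more: in AIA-cold against control it was 126, 0 to 279 under the other settings, 0 to 297 when each array was left out and 914 with the covariate. For AIA-hot against control these were 13, 0 to 22, 0 to 61 and 162, for AIA-cold against AIA 0, 0 to 28, 0 to 76 and 102, and for AIA-hot against AIA 0, 0 to 138, 0 to 3 and 0. No paired analysis was possible because replicates were numbered in accession order, which pairs no arrays. With 3 arrays a group and standard errors of 0.60 to 1.27, differences of about 1 log2 unit were within the error. Ucp1, Elovl3 and most Ppargc1a values were not well above background.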
